A study of Mus musculus with 43 samples.

Results

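The genes described here encode the subunits of oxidative phosphorylation, measured in CTLL-2 cells through 24 h of interleukin 2 (IL-2) after a period without it. The rule that takes them uses gene names and no measured value. A gene entered when a probe set carried a single symbol starting with Ndufa, Ndufb, Ndufc, Ndufs, Ndufv, Uqcr, Cox4, Cox5, Cox6, Cox7, Cox8 or Atp5, or was 1 of Sdha to Sdhd or Cycs. That rule gave 91 genes with 183 probe sets, of 18194 genes and 45101 probe sets in all, and each gene was read through its probe set with the highest mean signal. By complex the genes number 34 for complex I, 4 for complex II, 8 for complex III, 19 for complex IV and 17 for complex V. Cytochrome c (Cycs) and 8 genes named Ndufaf, which are assembly factors and not subunits, make up the rest. Ndufa4 and Ndufa4l2 were counted with complex IV, to which Ndufa4 is known to belong, and Cox7a2l was placed there by its name.

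Oxidative phosphorylation takes place in the inner mitochondrial membrane. Complex I oxidises NADH and complex II succinate, ubiquinone carries their electrons to complex III, cytochrome c carries them on to complex IV, and complex IV passes them to oxygen. Complexes I, III and IV pump protons, and complex V, the ATP synthase, uses the gradient to make ATP. Resting T cells rely on this pathway, and T cells that are activated and grow are known to raise glycolysis and to build new mitochondria. All members are nuclear genes. Genes of the mitochondrial genome are not among them.

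CTLL-2 is a cytotoxic T cell line from a C57BL/6 mouse that depends on IL-2. All 43 arrays measured cells that had first been kept for 14 h in medium without IL-2. The starved 0 h group (n = 5) was collected then. Other cells then received human recombinant IL-2 (100 U/mL) and were collected at 0.5, 1, 2, 6, 8, 10, 12, 16 and 24 h (n = 3 each) and at 4 h (n = 4). Further cells stayed without IL-2 for 4 h more (n = 4) or 8 h more (n = 3). The design text calls the replicates of the time points biological and says nothing of those kept longer without IL-2. The latter may be technical replicates, and the p-values, whose spread was pooled over all groups, count them as independent cultures. A single line kept in culture is the model for every group. In RNA from a whole culture, fewer cells of a kind and less RNA per cell cannot be told apart.

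The markers fit the label of the line. Granzyme B (Gzmb), perforin (Prf1), Cd3e, Cd3g, Cd3d, Cd247, Thy1, Il2ra and Il2rb had mean signals of 3534 to 38656, whereas Cd2 read 16 through its probe set. Genes that mark fibroblasts, erythroid cells, B cells and macrophages had mean signals of 38 to 204, apart from Cd68 at 973. Median signals of the arrays ran from 46.1 to 118.6, and the 7 arrays of scan day 2 lay above all others (96.3 to 118.6 against 46.1 to 76.5). Precision is limited by how many arrays each group has. All 7 arrays kept longer without IL-2 were scanned in a later year than the other 36, so IL-2 and scan year cannot be told apart between them. Replicate 2 of the group labelled no IL-2 4 h goes against its label. Over 954 probe sets that differed at least 4-fold between IL-2 8 h and no IL-2 8 h, it lay 0.746 of the way from the other 3 arrays of its group to the IL-2 4 h arrays, against −0.282 to −0.218 for those 3. For the members, the 4 h counts and calls that rest on it are given with and without it, as are the subunit medians. Figures, counts of related genes, likeness to Cycs and values under other processing include it.

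A further array, replicate 2 of IL-2 8 h, carried genes of heart muscle. On a list of 20 such genes, drawn up after this was seen, 16 were higher there than on any of the other 42 arrays. Myoglobin (Mb) read 5938 against at most 301 elsewhere, the cardiac myosin heavy chain Myh6 3243 against 127.1, the ventricular light chain Myl2 5225 against 452.5 and cardiac troponin T (Tnnt2) 3155 against 156.9. The summed signal of the 20 genes was 36174 on that array, 3080 on replicate 1 of IL-2 12 h, which was second highest for 10 of them, and 611.4 to 1722 on the other 41. Of the 20, Myh7 and Ttn stood at 16.3 and 6.8 through their brightest probe sets on that 8 h array. Heart is rich in the genes described here, and the array had the highest mean level of complexes I to V of the 3 at 8 h. For the members, the counts, medians and calls that changed at 8 h are given with and without it. The part of the heart genes in the remaining 8 h values was not tested.

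Most members stayed close to their starved level throughout. A log2 difference here is the difference of group means of log2(signal + 16), given with its standard error (SE) from limma, and a gene was called at an adjusted p under 0.05 over all 32184 probe sets tested. Of the 91 genes 88 passed the filter on low signals, and Ndufb4, Cox6b2 and Cox7a1 did not. Of the 80 subunits tested 50 lay within 0.5 of starved 0 h on the log2 scale at all 10 IL-2 times, and 10 went beyond 1 at some time. Of the 71 with a mean signal over 2000, 6 went beyond 1. Without replicate 2 of IL-2 8 h, the array with heart genes, Cox6a2 went from 1.14 to 0.11 at 8 h and Cox8b from 0.48 to −1.11. The F test over the time course called 17 of 88 members (19.3%, with 25 at an unadjusted p under 0.05), where 26.8% of all probe sets tested were called. Among probe sets with a mean signal over 2000, which 71 of the 80 tested subunits share, that share was 46.5%. The 17 were 9 of 33 in complex I, 1 of 17 in complex IV, 2 of 17 in complex V, Cycs, and 4 of the 8 Ndufaf factors. In complexes II and III limma called 0 of 4 and 0 of 8, with 1 in each at an unadjusted p under 0.05.

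The count of called members grew with time in IL-2 up to 16 h. At 0.5 and 1 h limma called 0 of 88, with 1 and 5 at an unadjusted p under 0.05, where 0.134% and 0.519% of all probe sets were called. The 2 h arrays gave 2 members (2.81% of all probe sets), the 4 h arrays 4 (15.1%) and the 6 h arrays 6 (16.8%). The 8 h arrays gave 14 (19.1%), those of 10 h 15 (20%), those of 12 h 15 (19.4%), those of 16 h 19 (15.4%) and those of 24 h 7 (8.79%). As shares of the 88 these are 15.9% at 8 h, 17% at 10 and 12 h, 21.6% at 16 h and 7.95% at 24 h. With all arrays, only the 16 h share was above that of all probe sets. Of the 71 subunits with a mean signal over 2000, 18.3% were called at 16 h, below the 31.9% of all probe sets that strong. The count at 8 h was 8 without replicate 1 of starved 0 h and 8 without its replicate 2. It was 9 without replicate 1 of IL-2 8 h. Without replicate 2, the array with heart genes, it was 7, where 15.6% of all probe sets were called. The 7 calls that ended then were those of Atp5g1 (0.83), Ndufs4 (0.74), Ndufa4 (0.60), Ndufab1 (0.47), Ndufb3 (0.44), Ndufa5 (0.40) and Ndufa12 (0.39), and the 7 that held were Cycs, Ndufb1, Ndufb6, Cox7a2l, Ndufaf4, Ndufaf5 and Ndufaf8. Without replicate 1 of IL-2 12 h the 12 h count was 13 of 88, a larger share than the 12.7% of all probe sets called then. The count at 16 h was 10 without replicate 1 of IL-2 16 h (11.4% of the members, against 8.55% of all probe sets and 20.8% of the strong ones), and that at 2 h was 0 without replicate 1 or 3 of IL-2 2 h. In all 18 members were called higher at some IL-2 time and 8 lower, and none was called both ways. Of all probe sets 13% were called higher at some IL-2 time and 22.1% lower, and of those with a mean signal over 2000 31.9% and 22.9%.

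**Figure D1:**
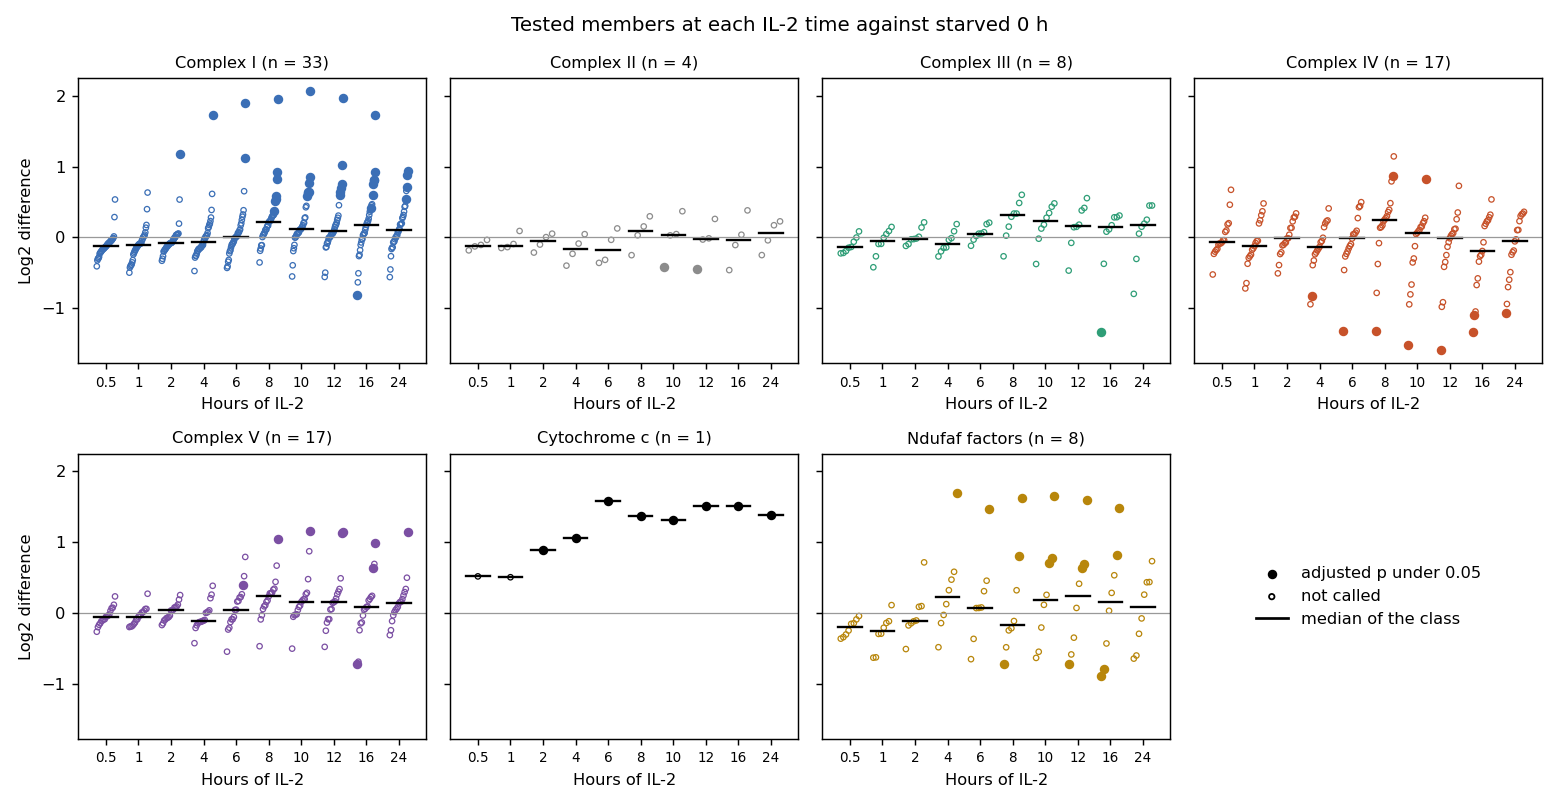
Log2 difference from starved 0 h (vertical axis) at each IL-2 time in hours (horizontal axis) for the 88 tested members, with a panel for each complex, for cytochrome c and for the Ndufaf factors. Each circle is a gene, filled where its adjusted p was under 0.05, and bars are class medians. In complexes II and III most genes lie within 0.5 of 0 and Uqcrh falls lowest, at 16 h, while a few genes of complexes I and IV, Cycs and Ndufaf4 move away from it.

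The medians of the complexes lay close together, and no test between complexes was made. At 8 h the median log2 difference from starved 0 h was 0.21 in complex I, 0.09 in complex II, 0.31 in complex III, 0.25 in complex IV and 0.23 in complex V, and 0.23 over the 80 subunits. Without replicate 2 of IL-2 8 h these were 0.10, 0.03, 0.12, 0.11 and 0.18, and 0.11 over the subunits, each lower than with that array. The median of all probe sets tested was then −0.14, and 0.14 for those with a mean signal over 2000, and without that array −0.11 and 0.12. Within scan day 3 (2 arrays against 2) the subunit median was 0.02 and within scan day 4 (1 against 1) 0.10, both lower than over all arrays. From complex I to V the medians within scan day 3 were −0.03, −0.02, 0.05, 0.07 and 0.14. With all arrays the subunit median was 0.40 with each array centred on its median and 0.04 after quantile normalisation, settings that moved the median of all probe sets to 0.03 and −0.01. At 16 h the complexes stood at 0.18, −0.04, 0.14, −0.19 and 0.08 from I to V. These medians include replicate 1 of 16 h, the lowest array of its group in complexes I, II, III and V. Its mean log2(signal + 16) in complex III was 12.18, against 13.29 and 13.04 on the others. Its GAPDH 3′/5′ ratio, a measure of RNA integrity, was the highest of all arrays (1.41), and the part of RNA integrity in these medians was not tested. At 4 h the subunit median was −0.10, and 0.24 after median centring, so that its direction there depends on the scaling.

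**Figure D2:**
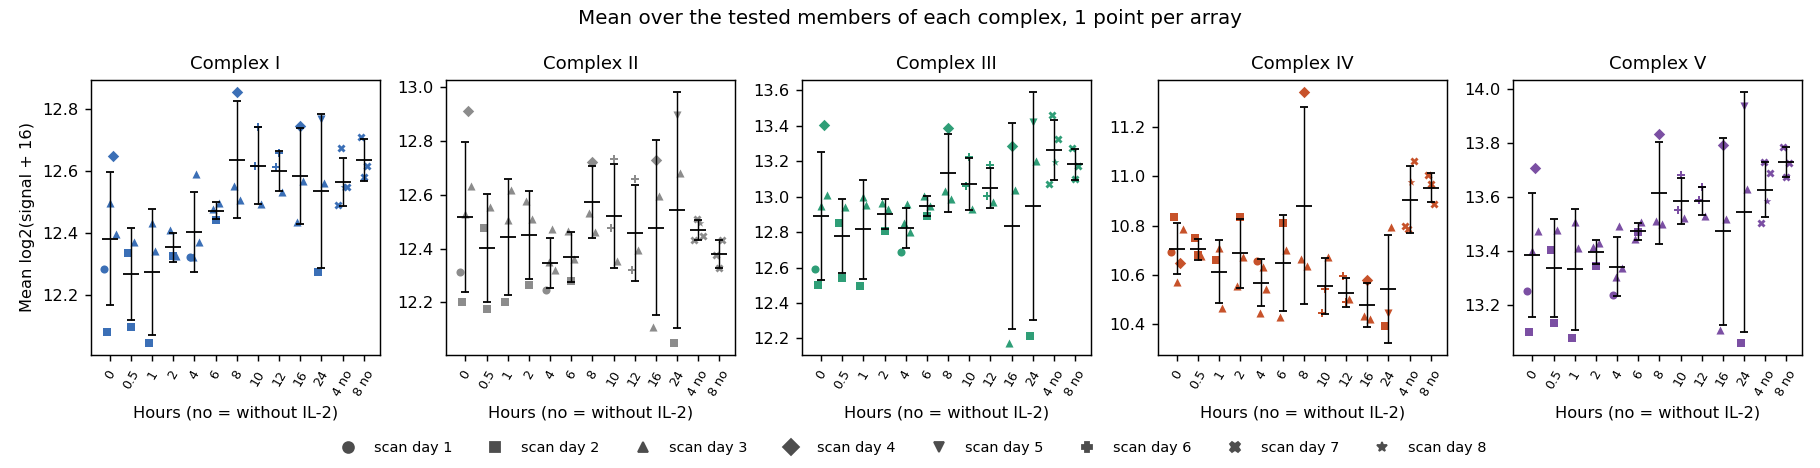
Mean log2(signal + 16) over the tested members of complexes I to V (vertical axis), 1 point per array, by group and hours (horizontal axis); symbols give the scan day, bars the group mean and its SD. Arrays of 1 group differ by as much as the groups do, for complex I from 12.08 to 12.65 at starved 0 h, with the array of scan day 2 lowest and that of scan day 4 highest.

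Cytochrome c, the soluble carrier between complexes III and IV that also starts apoptosis when it leaves mitochondria, rose early and stayed high. Its signals at starved 0 h were 5633, 10193, 9378, 3914 and 11088. At IL-2 2 h they were 12365, 14034 and 15239 and at 8 h 19129, 16103 and 23451. At 24 h they were 27728, 13216 and 20538, and from 2 h on every IL-2 array lay above every starved array. On the log2 scale the difference was 0.89 ± 0.25 at 2 h (adjusted p = 0.0387), 1.58 ± 0.25 at 6 h, its peak (adjusted p = 2.04e-05), and 1.39 ± 0.25 at 24 h (adjusted p = 0.000282). It was called at 8 of the 10 times, and the call at 2 h ended without any 1 of 5 of the 8 arrays compared (0.65 to 0.97). The starved spread is wide, and replicates 1 and 4 are the low arrays. Replicate 4 and replicate 2 of 8 h came from scan day 4, on which alone the difference at 8 h was 2.04, against 1.05 on scan day 3. Without replicate 2 of 8 h it was 1.50. Of its other probe sets 2 gave 1.44 and 1.28 at 8 h, both called, and the remaining one read near background. At 2 h those 2 were at 0.43 and 0.40, not called, and at 4 h at 0.93 and 1.08, called.

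The 300 bases around the annotated start of Cycs are printed because cytochrome c is the textbook target of nuclear respiratory factor 1 (NRF1), which binds promoters of many respiratory genes. The sequence is RefSeq's for GRCm38.p6, 250 bases before the start and 50 after it, 5′ to 3′ on the gene's strand. Capitals mark matches on either strand to the NRF1 core GCATGCG, whose match here reads the same on both strands and overlaps itself, and to the YY1 motif AGATGGC.
Cycs promoter, chr6:50566520-50566819, minus strand: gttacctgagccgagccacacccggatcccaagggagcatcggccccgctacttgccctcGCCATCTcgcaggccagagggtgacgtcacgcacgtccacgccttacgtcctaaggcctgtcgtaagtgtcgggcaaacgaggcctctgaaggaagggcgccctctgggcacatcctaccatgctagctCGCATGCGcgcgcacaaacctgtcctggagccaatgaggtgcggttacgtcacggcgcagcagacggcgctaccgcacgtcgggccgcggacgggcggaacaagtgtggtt

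Of 80 promoters of the 75 members found in that table, 16.2% hold the NRF1 core, against 3.58% of all 32851 promoters. The ETS core CCGGAAG, the motif of GABPA, which also binds respiratory gene promoters, is in 23.8% against 8.86%. YY1's AGATGGC is in 16.2% against 6.4%, and the E-box CACGTG in 8.8% against 7.15%. Of 16 genes called by the F test 2 hold the NRF1 core, 3 the ETS core and 5 the YY1 motif, and of 59 not called 11, 16 and 8. A match is a stretch of letters and not a measured site.

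In complex I 9 of 33 tested members were called higher at some IL-2 time (13% of all probe sets, 31.9% of the strong ones). All were accessory subunits, which surround the catalytic core and make up most of the 33. Ndufa6 was called lower, at −0.81 ± 0.24 at 16 h, and at −0.37, not called, without replicate 1 of that time. Ndufb1, a small subunit of the membrane arm, had signals of 271, 209, 377, 360.2 and 206 at starved 0 h. It reached 1048, 974, 805 and 982 at 4 h and 1415, 1135 and 1081 at 10 h, and then 907, 278 and 341 at 24 h. All arrays from 2 to 16 h lay above all starved ones, and at 24 h 2 of 3 were within the starved range. Ndufb1 differed by 1.72 ± 0.28 on the log2 scale at 4 h (adjusted p = 3.54e-05), 2.06 ± 0.31 at 10 h (adjusted p = 5.89e-06) and 0.66 ± 0.31 at 24 h (adjusted p = 0.191). Within scan day 3 it was 1.66 at 4 h and 1.97 at 8 h, close to the values over all arrays. Ndufb1 has a single probe set.

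**Figure D3:**
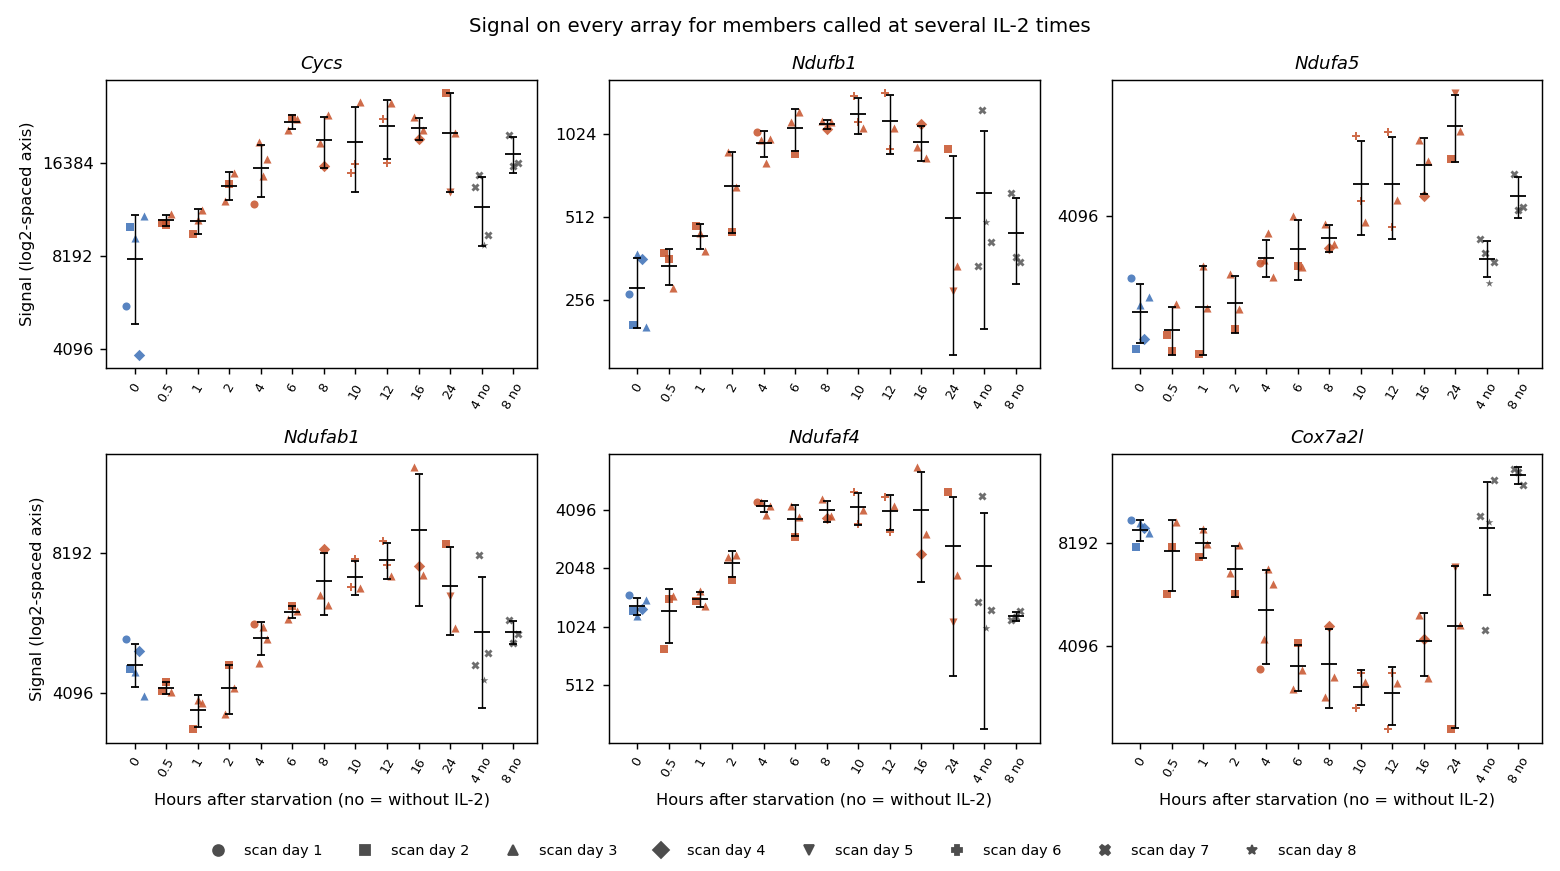
Signal on every array (vertical axis, log2-spaced) for 6 members by hours of IL-2, with the cells kept without IL-2 at the right; symbols give the scan day and bars the group mean and its SD. Cycs, Ndufb1 and Ndufaf4 rise within 2 to 6 h, Ndufa5 and Ndufab1 from about 8 h, and Cox7a2l falls; the no IL-2 4 h array with the highest Ndufb1 and Ndufaf4 is replicate 2.

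Other complex I subunits were called against starved 0 h only at 6 h or later, Ndufb7 and Ndufc2 at 16 h alone, with smaller differences. Against no IL-2 at 8 h, Ndufa5 stood at −0.21, Ndufab1 at 0.35, Ndufa12 at 0.28 and Ndufb6 at −0.26. Ndufs4 was at 0.47, Ndufb3 at 0.35, Ndufb7 at −0.165 and Ndufc2 at 0.16 there. None of these was called in that comparison, with or without replicate 2 of IL-2 8 h. Ndufa5, of the peripheral arm that oxidises NADH, had signals of 3299, 2567, 2999, 2662 and 3081 at starved 0 h and 5354, 4404 and 4978 at 16 h. At 24 h they were 5014, 6321 and 5525, and all arrays of both times lay above all starved ones. Its log2 difference was 0.75 ± 0.14 at 16 h (adjusted p = 0.000157) and 0.94 ± 0.14 at 24 h (adjusted p = 2.47e-05), where its 2nd probe set, at 0.82, was not called. Ndufab1, the mitochondrial acyl carrier protein that also serves fatty acid synthesis, went from 5353, 4599.9, 4534, 5029 and 4029 to 8669.9, 7712 and 7296 at 12 h, again without overlap. Its difference was 0.75 ± 0.17 then (adjusted p = 0.00129) and 0.92 ± 0.17 at 16 h. Ndufa12, of the peripheral arm, was called at 5 times, at 0.70 ± 0.17 at 12 h (adjusted p = 0.00248). Its brightest probe set was at 0.52 at 8 h, a 2nd at 0.58 and a 3rd, not called, at 0.33.

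Ndufb6, of the membrane arm, was called from 6 to 24 h with 1.13 ± 0.27 at 6 h (adjusted p = 0.00261), where its 2nd probe set was at 0.40 and not called. Its starved arrays read 3132, 5959, 4298, 1889.5 and 5394 and its 8 h arrays 7266, 4914 and 8714, so the groups overlapped, as they did at each called time after 6 h. Without starved 0 h replicate 4 its calls at 8, 10, 16 and 24 h ended, at 0.57, 0.59, 0.56 and 0.63. Its 2nd probe set was called at 8 h, at 0.56. Without replicate 2 of 8 h the first was at 1.05, still called. Ndufs4, an accessory subunit that links to the NADH-oxidising module, was called at 8 and 10 h (0.92 and 0.76). Ndufb3 was called at 8, 10 and 12 h, up to 0.60, and Ndufb7 and Ndufc2 at 16 h (0.60 and 0.41). Each of these 4 lost its calls in at least 1 fit without an array, with 0.31 and 0.30 for Ndufb7 and Ndufc2 without replicate 1 of 16 h. Ndufs7, a core subunit with an iron-sulfur centre, was called by the F test (adjusted p = 0.0335) and at no single time. No core subunit was called at a single IL-2 time, among Ndufs1, Ndufs3, Ndufs7, Ndufs8, Ndufv1 and Ndufv2. For Ndufs1, which holds several iron-sulfur centres, the difference at 8 h was 0.06 (95% interval, not adjusted for the number of tests, −0.42 to 0.53), and for Ndufv1, which binds NADH, −0.16 (−0.56 to 0.24). Without replicate 2 of IL-2 8 h these were −0.22 and −0.36, neither called.

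Likeness to Cycs was measured by Pearson's r over the 13 group means of log2(signal + 16), as a description over groups that share arrays. The members most like it were Ndufb6 (r = 0.932), Ndufaf8 (0.814), Ndufa12 (0.81), Atp5g1 (0.805) and Ndufab1 (0.793). Ndufb6 and Cycs were both lowest on starved 0 h replicate 4 and next lowest on replicate 1.

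Complex II, succinate dehydrogenase, also works in the citric acid cycle. Sdha, its flavoprotein, had starved signals of 6902, 5591, 7455, 8523 and 6583 and at 12 h 4739, 5427 and 5122. At 12 h all 3 arrays lay below all starved ones, by −0.45 ± 0.14 on the log2 scale (adjusted p = 0.0209), and at 10 h the difference was −0.42 ± 0.14 (adjusted p = 0.0283). Both calls ended without starved 0 h replicate 4, the highest starved array, at −0.37 and −0.35. The call at 12 h also ended without replicate 1 (−0.40) or 3 (−0.45) of that time, and the call at 10 h without replicate 1 (−0.44) or 3 (−0.34) of its own or starved 0 h replicate 3 (−0.40). Sdhb, the iron-sulfur subunit, stood at 0.26 at 12 h (95% interval −0.12 to 0.64), and the membrane anchors Sdhc and Sdhd at −0.01 and −0.03, none of them called.

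In complex III the 1 subunit called was Uqcrh, the hinge protein next to cytochrome c1, and the call rests on a single array. Its signals were 17421, 15062, 15483, 18192 and 19698 at starved 0 h and 2041, 12146 and 12517 at 16 h. Replicate 1 was far below the other arrays at 16 h, and all 3 lay below the starved ones. The log2 difference of −1.33 ± 0.34 (adjusted p = 0.00559) became −0.47, not called, without that array. Its GAPDH 3′/5′ ratio, a measure of RNA integrity, was 1.41, the highest of all arrays. Uqcrh was also low on IL-2 24 h replicate 1, at 3875 against 15755 and 15415. The GAPDH ratio of that array was 0.85, so the low value there did not go with a high ratio. The part of RNA integrity in the low 16 h value was not tested. The core protein Uqcrc1 and the Rieske iron-sulfur protein Uqcrfs1 were not called at any IL-2 time, with 0.15 (95% interval −0.29 to 0.59) and 0.34 (−0.02 to 0.69) at 8 h. Uqcr10 and Uqcr11 were at 0.43 and 0.48 at 10 h and Uqcrc2 at −0.38 at 16 h, none of them called.

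The clearest fall was that of Cox7a2l, a relative of complex IV subunit 7a. It has been linked to the joining of complexes III and IV, which was not measured here. Its signals at starved 0 h were 9545, 7957, 9352, 9036 and 8706. At IL-2 6 h they were 3068, 4158 and 3469, at 12 h 2331, 3412 and 3190.4 and at 24 h 2332, 6952 and 4719.7. From 4 h on all IL-2 arrays lay below all starved ones. Cox7a2l fell to a log2 difference of −0.82 ± 0.24 at 4 h (adjusted p = 0.0146), −1.59 ± 0.26 at 12 h (adjusted p = 2.24e-05) and −1.06 ± 0.26 at 24 h (adjusted p = 0.00725). The 4 h call ended without IL-2 4 h replicate 1 (−0.65) or 2 (−0.75), and that at 24 h without replicate 1 (−0.63). Its other 2 probe sets fell alike, at −1.36 and −1.33 at 8 h against −1.32. Within scan day 3 the fall at 8 h was −1.54, and within scan day 4 −0.95. Cox7a2, the subunit it resembles, was at 0.26 ± 0.15 at 12 h and was not called at any time.

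Other subunits of complex IV had smaller differences. Ndufa4, a subunit of the complex despite its name, went from 682, 966, 1341, 2149.6 and 1492 to 1948, 3278 and 1801 at 8 h, with overlap, a log2 difference of 0.86 ± 0.28 (adjusted p = 0.0269). At 10 h it was at 0.83, and both calls ended without starved 0 h replicate 1 (0.65 and 0.62) or 2 (0.78 and 0.74). They also ended without replicate 2 of 8 h (0.60) and replicate 1 or 2 of 10 h (0.75 and 0.72). Cox4i1 and Cox5a, which bind the catalytic core of the enzyme, stood at −0.13 (95% interval −0.53 to 0.26) and 0.35 (0.01 to 0.69) at 12 h. Cox5b, a zinc-binding subunit, was at −0.01 (−0.37 to 0.34). Where complex IV has paired isoforms, the widely expressed ones were well above the array medians on every array. Cox4i1 read from 15468 to 37331, Cox6a1 from 18208 to 40731, Cox6b1 from 14135 to 29527 and Cox8a from 2181 to 14843.

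Cox4i2, an isoform known from lung, read 5.6 to 193 over the 43 arrays, and its call at 16 h (−1.34, −0.83 and not called without replicate 3) lies at that level, as does Ndufa4l2 at 4.8 to 100.1. Cox6a2, Cox7a1 and Cox8b, the isoforms of heart and skeletal muscle, read 18.6 to 1035, 1.4 to 503 and 2.1 to 625. All 3 were highest on IL-2 8 h replicate 2, the array with heart genes, and on the other 42 arrays they reached 229.4, 101 and 78.8. Cox6b2, Cox7b2 and Cox8c, known from testis, read 1.9 to 85.9, 1.1 to 90.2 and 98.9 to 556. Cox7c, which every cell is known to use, read only 23.0 to 288 through its brightest probe set.

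Complex V has a special case in its c subunit, which forms the rotating ring of the synthase. In mammals 3 genes, Atp5g1, Atp5g2 and Atp5g3, encode the same mature c subunit behind different import sequences, and here their calls differed. Atp5g1 had signals of 1801, 2054, 3549, 5037 and 4015 at starved 0 h, 5509.8, 8624 and 5384 at 8 h and 6049, 8122 and 6284 at 12 h. All arrays at 8, 10 and 12 h lay above all starved ones. At 24 h it read 3209, 12158 and 8031, with replicate 1 inside the starved range. It differed by 1.16 ± 0.33 on the log2 scale at 10 h (adjusted p = 0.00919), and it was called at 5 times. Each of those calls ended in at least 1 fit without an array, at 0.71 to 1.03. At 8 h it was 0.53 within scan day 3 and 0.77 within scan day 4, against 1.05 over all arrays and 0.83, not called, without replicate 2 of 8 h. Against no IL-2 at 8 h Atp5g1 was at 0.48 and not called.

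Atp5g2 was called lower at 16 h, a call that 1 array moved most. It read 9956, 9510.2, 10670.0, 14354 and 11666 at starved 0 h and 3842, 9819 and 8186 at 16 h, a difference of −0.71 ± 0.24 (adjusted p = 0.0343), with replicate 1 far below the others. Without that array it was −0.31 and not called, and the call also ended without starved 0 h replicate 4 (−0.62) or 5 (−0.70). At 8 h it was at −0.47 (95% interval −0.95 to 0.01), and at −0.61 without replicate 2 of that time, not called in either fit. Atp5g3 read 17873, 16764, 18629, 24263 and 16077 at starved 0 h and 25255, 22332 and 21104 at 12 h, 0.30 ± 0.16 (adjusted p = 0.203), and was not called at any time. Whether the 3 genes differ in their response was not tested.

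**Figure D4:**
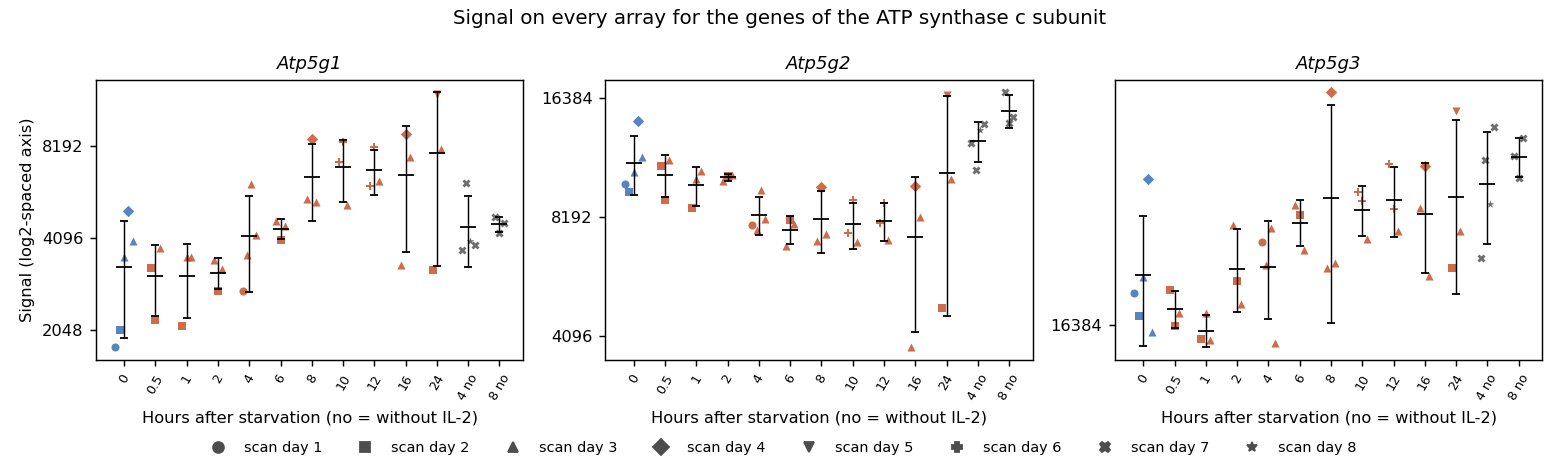
Signal on every array (vertical axis, log2-spaced) for Atp5g1, Atp5g2 and Atp5g3 by hours of IL-2, with the cells kept without IL-2 at the right; symbols give the scan day and bars the group mean and its SD. Atp5g1 lies above starved 0 h on every array from 8 to 12 h, Atp5g2 is lowest on replicate 1 of IL-2 16 h, and the groups of Atp5g3 overlap.

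The promoters of these genes of a single protein are shown for comparison, as 300 bases from RefSeq (GRCm38.p6) like that of Cycs, with motif matches in capitals. Atp5g2 holds the NRF1 core and Atp5g1 and Atp5g3 an E-box.
Atp5g1 promoter, chr11:96075582-96075881, minus strand: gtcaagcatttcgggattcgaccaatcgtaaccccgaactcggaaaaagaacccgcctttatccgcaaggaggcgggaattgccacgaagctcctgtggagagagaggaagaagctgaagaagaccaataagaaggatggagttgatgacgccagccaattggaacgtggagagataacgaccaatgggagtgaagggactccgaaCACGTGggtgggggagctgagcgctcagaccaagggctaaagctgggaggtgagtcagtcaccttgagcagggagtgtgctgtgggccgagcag
Atp5g2 promoter, chr15:102670998-102671297, minus strand: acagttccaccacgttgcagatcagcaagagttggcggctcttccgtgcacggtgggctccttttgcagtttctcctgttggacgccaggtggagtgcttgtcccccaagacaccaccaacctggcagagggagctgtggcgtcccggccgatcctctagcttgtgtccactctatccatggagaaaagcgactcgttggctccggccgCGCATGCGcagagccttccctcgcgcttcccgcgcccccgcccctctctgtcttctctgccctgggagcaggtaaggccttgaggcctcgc
Atp5g3 promoter, chr2:73911277-73911576, minus strand: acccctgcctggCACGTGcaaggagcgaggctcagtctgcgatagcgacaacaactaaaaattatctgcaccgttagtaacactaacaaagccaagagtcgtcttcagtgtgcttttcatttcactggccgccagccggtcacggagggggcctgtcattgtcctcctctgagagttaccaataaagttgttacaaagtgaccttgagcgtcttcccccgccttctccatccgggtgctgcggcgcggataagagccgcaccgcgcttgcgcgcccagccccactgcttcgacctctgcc

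The catalytic subunits of complex V were not called in the time course. Atp5a1 and Atp5b, the alpha and beta subunits of the catalytic head, stood at 0.09 (95% interval −0.35 to 0.54) and 0.29 (0.03 to 0.55) at 8 h. Atp5c1, the central shaft, was at −0.09 (−0.39 to 0.21). Without replicate 2 of IL-2 8 h Atp5a1, Atp5b and Atp5c1 were at −0.14, 0.20 and −0.28, none of them called. Atp5d, the delta subunit at the foot of the shaft, was called at 16 h (0.63 ± 0.19, adjusted p = 0.0158), and not without IL-2 16 h replicate 1 (0.42) or starved 0 h replicate 2 (0.54). Atp5md, a small subunit near the ring, was called at 12 h (1.13 ± 0.34, adjusted p = 0.0132) and not without replicate 2 of 12 h (0.97). Atp5pb, the b subunit of the outer stalk, was called at 6 h (0.39), and not without any 1 of 6 of the 8 arrays compared (0.29 to 0.42).

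Among the Ndufaf factors, which build complex I and are not part of it, Ndufaf4 rose most. It had signals of 1487, 1239, 1164, 1262 and 1404 at starved 0 h, 2340.1, 1783 and 2396 at 2 h and 4469, 4485, 3869 and 4290.3 at 4 h. All arrays from 2 to 16 h lay above all starved ones, and at 24 h it read 5061, 1077 and 1893, with overlap. Its log2 difference from starved 0 h was 1.70 ± 0.32 at 4 h (adjusted p = 0.000217) and 1.66 ± 0.35 at 10 h (adjusted p = 0.000546), and a 2nd probe set gave 1.41 at 4 h, also called. Without IL-2 16 h replicate 1 the call at 16 h ended (1.05). Ndufaf8 was called higher from 8 to 16 h, at 0.80 ± 0.19 at 8 h (adjusted p = 0.002), and Ndufaf6 at 10 and 12 h. Single fits without an array ended the Ndufaf8 calls at 10 h (0.59), 12 h (0.49 and 0.56) and 16 h (0.57). Ndufaf3 was called lower at 12 and 16 h (−0.72 and −0.89) and Ndufaf5 at 8 and 16 h (−0.73 and −0.79). At 16 h these 2 were at −0.46 and −0.59, not called, without replicate 1 of that time, and their earlier calls and those of Ndufaf6 also ended in fits without an array. Ndufaf2 was called by the F test (adjusted p = 0.00878) and at no single IL-2 time.

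Cells with and without IL-2 were compared at equal culture time, though not in equal scan years. At 4 h limma called 10 of 88 members (14.5% of all probe sets), 8 of them subunits that were lower with IL-2 (7.21% of all probe sets were called lower, and 16.4% of those with a mean signal over 2000). For 25 of the 80 subunits (31.2%) all IL-2 arrays lay below all no IL-2 arrays, where 8.5% of all probe sets did. That share was not counted among probe sets with a mean signal over 2000. The subunit median was −0.26, against 0.01 for all probe sets and −0.07 for those with a mean signal over 2000. It was −0.28 after median centring and −0.13 after quantile normalisation. Without no IL-2 4 h replicate 2, the array that goes against its label, 9 members were called (18.3% of all probe sets), 6 of them subunits that were lower (9.36%). All IL-2 arrays then lay below for 28 of 80 subunits (35%, against 17.3% of all probe sets), and the subunit median was −0.25 against 0.00. The count was 5, 4 or 5 without replicate 1, 2 or 4 of the IL-2 arrays and 5 or 3 without replicate 3 or 4 of the others. The scan year moves with this comparison, and so does the actin 3′/5′ ratio, at 1.07 to 1.36 in the earlier year and 1.18 to 1.53 in the later.

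Cox4i1 was among those without overlap. Its 4 arrays with IL-2 at 4 h read 21107, 22464, 19526 and 15468 and the 4 without 24941, 35538, 27742 and 37331, all higher. They differed by −0.67 ± 0.19 on the log2 scale (adjusted p = 0.0129), −0.60 and still called without no IL-2 4 h replicate 2, and −0.22, not called, after quantile normalisation. The call also ended without replicate 4 of either group (−0.56 and −0.58). Ndufv1 was at −0.57 (adjusted p = 0.039), and −0.59 without replicate 2; it was not called without any 1 of the 6 arrays other than that one and IL-2 4 h replicate 3 (−0.47 to −0.60). Ndufa1, a membrane arm subunit, was at −0.69 (adjusted p = 0.00553) with replicate 2 and without it. Uqcrc1 was at −0.66 and Ndufa4 at −0.86, and both calls ended without replicate 2, at −0.51 and −0.67. Ndufb5 and Ndufb7 were called at −0.53 and −0.55, and without replicate 2 the former was at −0.54, still called, and the latter at −0.49, not called. Without it Atp5g2 was called too, at −0.70 (adjusted p = 0.044). Cox7a2l read 3493, 4268, 6864 and 6212 with IL-2 and 9773, 4557, 9401 and 12469.7 without, where replicate 2 is the low value and the groups overlap. Its difference was −0.76 ± 0.25 (adjusted p = 0.0371), and −1.06 without replicate 2. Without any 1 of 5 other arrays it was −0.57 to −0.71 and not called.

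With all arrays the rises at 4 h were those of 2 Ndufaf factors. Ndufaf4 read 4469, 4485, 3869 and 4290.3 with IL-2 and 1369.6, 4814, 1008 and 1251 without it. Replicate 2 without IL-2 reads like the IL-2 arrays, and the other 3 like starved cells. Ndufaf4 was higher with IL-2 by 1.32 ± 0.34 on the log2 scale (adjusted p = 0.00621), and 1.82 without replicate 2. Ndufaf1 was at 0.54, and 0.65 without it; 6 of the other fits without an array ended that call (0.41 to 0.57). Ndufb1 showed the same split in the cells without IL-2, at 341, 1256, 492 and 416, and its difference was 0.78 ± 0.30 (adjusted p = 0.0728). Without replicate 2 it was 1.17 ± 0.28 and called (adjusted p = 0.00202).

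At 8 h 11 of 88 members were called (19.8% of all probe sets), and the subunit median was 0.02. Without replicate 2 of IL-2 8 h, the array with heart genes, 10 were called (16.9% of all probe sets) and the subunit median was −0.12. Cox5b, at −0.69, was then called too, and Atp5pb and Ndufaf8 no longer were. The count was 7 without replicate 1 of either group. Cox7a2l differed most. It read 2894, 4683 and 3318 with IL-2 and 13444, 13122 and 12088 without, with no overlap and a log2 difference of −1.85 ± 0.29 (adjusted p = 1.39e-05). Ndufaf4 was higher with IL-2, 4642, 3733 and 3808 against 1107, 1148 and 1226, by 1.79 ± 0.39 (adjusted p = 0.000818). Ndufb1, the subunit called higher, was at 1.33 ± 0.34 (adjusted p = 0.00422). Without that array these 3 stood at −2.05, 1.84 and 1.36, all called. They kept their calls under median centring, quantile normalisation and scan day as a random block. Cycs was not called, at 0.14 ± 0.28 (adjusted p = 0.789). It read 19129, 16103 and 23451 with IL-2 and 20325, 16021 and 16472 without, with overlap, both above all starved arrays. Its 2nd probe set, however, was called, at 0.66.

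Lower with IL-2 at 8 h were also Ndufaf2 (−0.94), Atp5g2 (−0.92, but 0.03 as the mean of its 2 probe sets, of which 1 reads near background), the stalk subunits Atp5h (−0.84) and Atp5pb (−0.57), Ndufv1 (−0.76), Cox4i1 (−0.67) and Ndufb10 (−0.67). Ndufaf8 was higher (0.58). For 17 of the 80 subunits all IL-2 arrays lay above all others (21.2%, against 20.2% of all probe sets) and for 17 all lay below (21.2%, against 23%). These counts were made only with all arrays, the array with heart genes among them. After quantile normalisation Cox4i1 was at −0.34 and Atp5h at −0.42, neither called. Without replicate 1 of either group the calls of Cox4i1 (−0.55 and −0.60), Ndufv1 (−0.63 and −0.69) and Atp5g2 (−0.84 in both) ended, as did those of Cox4i1 (−0.57) and Ndufv1 (−0.69) without replicate 3 of IL-2 8 h and that of Cox4i1 without replicate 3 of no IL-2 8 h (−0.69), and without replicate 2 of IL-2 8 h that of Atp5pb (−0.46). The Ndufaf8 call ended without any 1 of the 6 arrays (0.49 to 0.65).

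**Figure D5:**
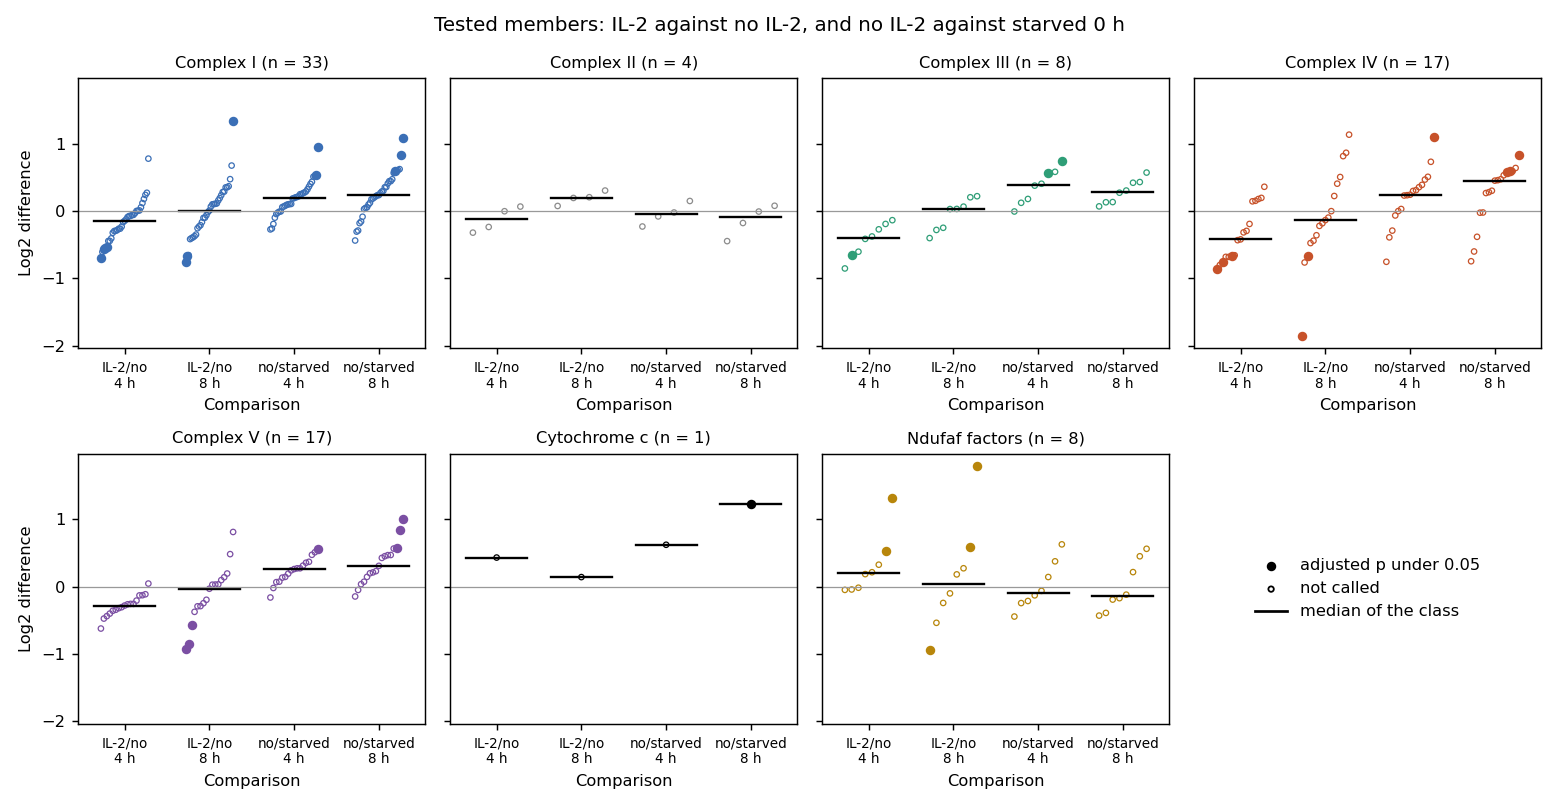
Log2 difference (vertical axis) of the 88 tested members in 4 comparisons (horizontal axis), first with against without IL-2 at each of 2 times and then each group without IL-2 against starved 0 h, with a panel for each class. Filled circles had an adjusted p under 0.05 and bars are medians. At 4 h most subunits lie below 0 with IL-2 (median −0.26), and without IL-2 most lie above starved 0 h (medians 0.22 and 0.28). All probe sets with a mean signal over 2000 had medians of −0.07, 0.15 and 0.14 in these comparisons. Without no IL-2 4 h replicate 2 the subunit medians at 4 h were −0.25 with against without IL-2 and 0.22 against starved 0 h.

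Cells kept longer without IL-2 were also set against starved 0 h, a comparison that shares its no IL-2 arrays with those above and its starved arrays with the time course and again spans both scan years. At 4 h 6 of 88 members were called (8.01% of all probe sets), all higher: Ndufa4 (1.10), Ndufb1 (0.95), Uqcrc1 (0.74), Atp5pb (0.57), Uqcrfs1 (0.56) and Ndufa1 (0.54). Without no IL-2 4 h replicate 2 the count was 1, without starved 0 h replicate 2 it was 2 and without replicate 4 it was 11. With replicate 2 left out, Ndufb1 was at 0.55, Ndufa4 at 0.91, Uqcrc1 at 0.59, Uqcrfs1 at 0.49 and Ndufa1 at 0.54, none of them called. Atp5pb, at 0.59, kept its call (adjusted p = 0.0136). At 8 h 10 were called (5.46% of all probe sets), all higher and all with a mean signal over 2000 (2.26% of all probe sets were called higher, and 11.5% of those over 2000). As a share of the 71 strong subunits that is 14.1%, near the share of equally strong probe sets. For 22 of 80 subunits (27.5%) all arrays lay above all starved ones, against 7.12% of all probe sets. That share was not counted among equally strong probe sets. The median of the 71 strong subunits was 0.29, against 0.14 for all probe sets that strong. The count at 8 h was 5 without no IL-2 8 h replicate 1 and 18 without starved 0 h replicate 4.

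Atp5h, the d subunit of the outer stalk, read 39136, 36823 and 34962 after 8 h more without IL-2 and 20543, 19955, 17014, 16509.6 and 18684 at starved 0 h. The groups were far apart, with a log2 difference of 1.00 ± 0.15 (adjusted p = 4.01e-05). Its 2nd probe set was at 0.38 and not called. Cycs was at 1.23 ± 0.25 (adjusted p = 0.00193) and Ndufb6 at 1.08, where its 2nd probe set was at 0.28. Atp5pb was at 0.85, with 0.10 from its 2nd probe set, and Cox6b1 at 0.59, with 0.07. Cox5a (0.83) and Cox5b (0.57) each had at least 1 further probe set called, and Cox5b, with overlap between its groups, kept its call in 1 of the 8 fits without an array. The others were Ndufb10 (0.84), Ndufa5 (0.59) and Atp5b (0.58). After quantile normalisation the Atp5h, Cox5a and Atp5b differences were 0.39, 0.28 and 0.15, none called, and the subunit median went from 0.28 to 0.08.

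Genes that serve the same pathway under other names were counted from lists of known function. Of 45 tested assembly and insertion factors, the 8 Ndufaf genes among them, 19 were called by the F test, where 26.8% of all probe sets were, and at 12 h 9 were higher and 5 lower (7.92% and 11.4% of all probe sets). Cox17, a copper chaperone for complex IV, rose at 12 h by 1.41 ± 0.16 (adjusted p = 8.31e-08), and Uqcc2, a complex III factor, by 0.77. Oxa1l, the insertase of the inner membrane, was at −1.16 at 8 h. Of 21 genes of mitochondrial biogenesis 9 were called by the same test. Pprc1, a coactivator of the PGC-1 family that is known to answer growth signals, rose at 4 h by 2.29 ± 0.39 (adjusted p = 5.01e-05) and Gabpb1, a subunit of the ETS factor GABP, at 8 h by 1.08. Ppargc1a, the best known coactivator of that family, was at −2.15 at 8 h from a mean signal of 419.8. The 8 h values of Oxa1l, Gabpb1 and Ppargc1a are given only with replicate 2 of that time, the array with heart genes.

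Of 19 genes for ubiquinone, electron entry and subunits named otherwise, 11 were called by the F test (26.8% of all probe sets). At 4 h 2 were called higher and 4 lower (6.52% and 8.56% of all probe sets). At 12 h 7 were higher and 3 lower (7.92% and 11.4%). Cyc1, cytochrome c1 of complex III, which the name rule did not take, rose by 1.02 at 16 h (adjusted p = 0.000114). Dhodh, which passes electrons to ubiquinone while making pyrimidines, rose by 2.31 at 12 h. Coq8a, a kinase-like protein of ubiquinone synthesis, was at −3.15 ± 0.59 at 4 h (adjusted p = 0.000207). Of 7 tested carriers and channels 1 was called by the F test, where 26.8% of all probe sets were. Vdac2, the channel of the outer membrane, was called at 8 h (0.67, with replicate 2 of that time included). With against without IL-2 at 4 h 2 were called lower (7.21% of all probe sets). No IL-2 4 h and no IL-2 8 h against starved 0 h each gave 1 called higher (2.59% and 2.26% of all probe sets). The counts here that use no IL-2 4 h include its replicate 2, the array that goes against its label.

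The authors' deposited table lists 3838 probe sets that changed over the time course, in 9 clusters, and 11 of the 183 probe sets of these genes are in it, where it holds 8.51% of all probe sets. The authors' deposited table holds the representative probe sets of Cycs, Cox7a2l, Atp5g1 and Ndufb6 in cluster 1 and those of Ndufb1 and Ndufaf4 in cluster 5. All 6 were also called by the F test here, from the same arrays (100% of the 6, and 35.3% of the 17 members called), so the overlap is no independent evidence. Further probe sets of Cycs, Cox7a2l and Ndufaf4 are in cluster 4, so these genes are split between clusters.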

How the data were processed

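The deposited values are signal intensities on a linear scale, and per the submitters' processing notes the authors computed them in GCOS 1.3 from Affymetrix arrays hybridised with biotin-labelled cRNA. The 2% trimmed mean of every array was 500.003 to 500.004, so the arrays had been scaled to 1 level. The p-values in the authors' deposited table are adjusted to a false discovery rate, per the file headers. Probe sets above their array's median on at least 3 arrays were tested (32184, control probe sets left out). Values were changed here to log2(signal + 16) and fitted with limma 3.58.1 in R 4.3.3, with 1 mean per group over all 43 arrays (30 residual degrees of freedom), a variance trend, two-sided tests and Benjamini-Hochberg adjustment. Genes came from the supplied annotation, and all 91 members matched the RefSeq table of GRCm38.p6. Probe sets ending in _x_at or _s_at, such as those of Ndufa12, Cox5b, Ndufab1 and Uqcrh, can also read related sequences. Scan days came from the scanner files. The fit was tested on simulated data. Members, lists and tests were chosen with earlier results of these data known. Named were the 4 members with the lowest F-test p in each complex, fixed core subunits, isoform pairs, and up to 3 called rises and 3 falls per comparison; other called members were named after their values were seen, and the heart list was added then. Alternatives were pseudocounts of 1 and 64, other scalings, no filter, blocks, subsets of arrays and an average over all probe sets of a gene.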

Additional observations from a re-analysis of the deposited data

Results flagged for a closer look

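In 12 of 171 cases (57 members in 3 groups) an array stood apart from the rest of its group by the gap to its nearest neighbour, a measure that chance exceeds in about 1 of 20 groups, or about 8.6 of these cases, and only the 3 groups of 4 or 5 arrays were examined. Cox5b was highest on starved 0 h replicate 4, at a signal of 36794 against 20070.1 on the next array, and on IL-2 4 h replicate 3, at 22112.1 against 18418.3. Uqcrfs1 was highest on starved 0 h replicate 4 too, at 9364.3 against 5662.3. Ndufb7 was highest on the same 2 arrays as Cox5b, at 13426.6 against 8253 and at 10011.9 against 8174. Ndufaf8 was lowest on starved 0 h replicate 2, at 1900.5 against 2850.8, and so was Ndufc2, at 7283.8 against 9358.7. Ndufa6 was lowest on IL-2 4 h replicate 2, at 3822 against 4423.7. Sdha was highest on IL-2 4 h replicate 3, at 6715.9 against 5743.1. On no IL-2 4 h replicate 2, the array that goes against its label, Atp5g1 read 6213.1 against 4019.3 and Ndufaf1 1442.1 against 1051.7. Cox8b, near background, read 55.5 on no IL-2 4 h replicate 1 against 7.4 on the next.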

How the results depend on the processing

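The counts of called members moved with the processing and are given as main value then alternative. Median centring gave 2 then 0 at 2 h, 14 then 8 at 8 h, 19 then 9 at 16 h, 7 then 3 at 24 h, 10 then 1 and 11 then 5 for cells with against without IL-2 at 4 and 8 h, and 6 then 15 for no IL-2 4 h against starved cells. Quantile normalisation gave 1 at 2 h, 8 at 4 h against 4, and 5 for no IL-2 8 h against 10. A fit of only the arrays compared gave 0 (2 h), 8 (8 h), 7 (16 h), 1 (24 h), 20 for with against without IL-2 at 8 h and 1 for no IL-2 4 h. Scan day as a random block gave 7 at 4 h, 11 at 6 h against 6, 2 for with against without IL-2 at 4 h, 1 for no IL-2 4 h and 6 for no IL-2 8 h, and as a fixed block 7 at 4 h and 12 at 6 h; the fixed block could not be fitted for the no IL-2 comparisons. Without the arrays of scan day 2 there were 1 at 2 h, 7 at 4 h and 4 at 24 h. No filter gave 1 at 2 h, and averaging all probe sets of a gene 7 at 4 h and 12 for no IL-2 4 h. The F count stayed between 15 and 23 under these settings. Without each array in turn the counts ran from 0 to 2 (2 h), 3 to 6 (4 h), 5 to 7 (6 h), 7 to 14 (8 h), 10 to 16 (10 and 12 h), 10 to 20 (16 h), 5 to 8 (24 h) and 16 to 24 (F test). For with against without IL-2 they ran from 3 to 10 at 4 h and 7 to 10 at 8 h, and for no IL-2 against starved cells from 1 to 11 at 4 h and 5 to 18 at 8 h; at 0.5 and 1 h they were 0 throughout. Split by direction, median centring gave 6 higher and 0 lower at 4 h against 3 and 1, 9 and 0 at 16 h against 12 and 7, and quantile normalisation 10 and 9 at 16 h, 4 and 5 at 6 h against 5 and 1, and 3 and 2 for no IL-2 8 h against 10 and 0. Atp5g2, with against without IL-2 at 8 h, turned from −0.92 to 0.029 with the mean of its 2 probe sets, of which 1 reads near background. Replicate number as a block gave 1 at 2 h and between 4 and 20 elsewhere after 1 h; same-numbered arrays deviated together, with every correlation over 0.1, in 7 of 78 pairs of groups, all of them between IL-2 times, and in none of the pairs compared here (correlations from −0.358 to 0.469 over 237 pairs of arrays, median 0.024). Of 119 calls of members named in the text 35 held under every setting, all of them calls of Cycs, Ndufb1, Ndufaf4, Cox7a2l, Ndufa5, Ndufa12, Ndufaf2, Ndufaf8, Ndufb6 and Ndufb10. Where the alternatives do not show it by leaving out arrays or probe sets, the cause was not tested. Genes read near the array medians have differences that depend on the pseudocount.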
